A study of Mus musculus with 2 samples.

Results

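The set described here holds 10 genes that build, switch on or supply the heat-producing program of brown and beige fat: *Ucp1*, *Prdm16*, *Ppargc1a*, *Ppargc1b*, *Cidea*, *Dio2*, *Adrb3*, *Elovl3*, *Tfam* and *Ehmt1*. They were chosen by name, out of 21938 protein-coding genes of the GENCODE M21 annotation. No measured value enters the rule, but earlier results of these data were known when these genes and the lists further below were chosen. TET2 binding had been mapped by chromatin immunoprecipitation and sequencing (ChIP-seq) in adipocytes made in culture. Adipose-derived stem cells (ASCs) were grown from the stromal cells of mouse inguinal white fat (iWAT), used at passage 3, and turned into adipocytes with IBMX, dexamethasone and insulin, followed by insulin alone. The methods state that the mice of the study were male. For these cells, the labels and methods do not give the genotype, strain, age or number of the animals, and name no cold or adrenergic stimulus. There was 1 TET2 ChIP library and 1 input library (chromatin sequenced without immunoprecipitation), so no value below has a replicate error and no test between conditions exists. The series holds no RNA data, so the adipocyte identity of the cells could not be checked here against marker genes. By qRT-PCR, the paper measured adipogenic genes in differentiated iWAT stem cells of control and *Tet2*-deficient mice, and thermogenic genes in fat of such mice.

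Thermogenic adipocytes burn fuel for heat. Noradrenaline acts through β-adrenergic receptors and cyclic AMP, the transcription factor PRDM16 and the coactivators PGC-1α (*Ppargc1a*) and PGC-1β (*Ppargc1b*) set up the program, and uncoupling protein 1 (*Ucp1*) lets protons leak across the inner mitochondrial membrane. Inguinal fat is a white depot in which such cells, called beige, can arise. TET2 is a dioxygenase that oxidizes 5-methylcytosine to 5-hydroxymethylcytosine, mostly where a C is followed by a G (a CpG). A ChIP peak shows where fragments bound by the TET2 antibody exceeded the input. It is not a measure of methylation, hydroxymethylation or transcription.

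The authors deposited 14103 peaks, each with a start, an end and the −log10 p of its enrichment over the input. The −log10 p had a median of 6.21, with 3.07 the smallest and 335 the largest value, and was used here only to place a peak within this list. The study's reporting summary names a p-value limit for peak calling that equals a −log10 p of 5, but 2182 of the deposited peaks lie below it, and the sources used here do not settle this difference. Peaks were 375 to 3392 bp long, and 4509 of them had the shortest length. A peak was called a promoter peak when its midpoint lay within 1 kb of any annotated transcription start site (TSS) of a gene. Those over 1 kb and up to 3 kb away formed the 1 to 3 kb class, and those inside the gene but farther from every TSS formed the gene body class. The list holds no read totals, and the study states its sequencing yield only as a data volume, so the reads behind each library are unknown and a gene without a peak may be bound below what this library could show.

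Peaks fell at 5 of the 10 genes and none at the other 5. *Ucp1*, *Prdm16*, *Ppargc1b* and *Tfam* had a promoter peak, which is 4 of 10, against 24.5% of all protein-coding genes (5384 of 21938, exact binomial 95% interval 24.0 to 25.1, which covers counting error only). *Adrb3* had a peak at 1 to 3 kb, against 4.99% of all genes. *Prdm16* and *Ppargc1b* also had gene body peaks, against 13.0% of all genes. *Ppargc1a*, *Cidea*, *Dio2*, *Elovl3* and *Ehmt1* had none in these places, like 63.6% of all genes. In all, 14 peaks belonged to the set, 5 at promoters and 8 in gene bodies, and 9 of the 14 lay in *Prdm16* alone. With so few genes, 4 of 10 beside 24.5% is not read here as a difference.

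Sequences of some of these peaks and promoters are printed here to show their CpGs, without the gene body peaks of *Prdm16*. The printed sequences are single examples in unlike windows, peak centres or bases before a start, and no difference between them was tested. Each is given 5′ to 3′ on the strand of its gene, in the GRCm38 reference, with every CG in capitals and untranslated bases left out. The first group lies under TET2 peaks: the 250 bases before the *Ucp1* start (chr8:83290098-83290347, plus strand, from the RefSeq promoter table for GRCm38.p6), the first coding bases of *Tfam* and the start of the intron after them (chr10:71237771-71237940, minus strand), the centre of the *Prdm16* promoter peak in intron 1 (chr4:154635704-154635953, minus strand), and the centre of the *Adrb3* peak (chr8:27227315-27227564, minus strand).
Ucp1 promoter: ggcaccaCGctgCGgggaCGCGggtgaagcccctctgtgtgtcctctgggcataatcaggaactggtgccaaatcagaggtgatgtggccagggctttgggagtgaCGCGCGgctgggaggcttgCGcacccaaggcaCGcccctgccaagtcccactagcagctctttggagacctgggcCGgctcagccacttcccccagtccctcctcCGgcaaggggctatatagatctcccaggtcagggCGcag
Tfam peak: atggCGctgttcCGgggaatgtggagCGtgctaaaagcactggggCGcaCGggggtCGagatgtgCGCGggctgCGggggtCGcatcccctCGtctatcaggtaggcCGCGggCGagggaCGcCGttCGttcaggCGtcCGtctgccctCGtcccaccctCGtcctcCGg
Prdm16 intron peak: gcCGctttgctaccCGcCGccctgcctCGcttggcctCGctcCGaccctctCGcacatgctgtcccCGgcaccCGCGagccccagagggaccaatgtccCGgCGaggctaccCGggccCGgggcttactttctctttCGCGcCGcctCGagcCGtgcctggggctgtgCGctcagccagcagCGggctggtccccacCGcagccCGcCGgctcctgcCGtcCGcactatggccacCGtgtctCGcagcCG
Adrb3 peak: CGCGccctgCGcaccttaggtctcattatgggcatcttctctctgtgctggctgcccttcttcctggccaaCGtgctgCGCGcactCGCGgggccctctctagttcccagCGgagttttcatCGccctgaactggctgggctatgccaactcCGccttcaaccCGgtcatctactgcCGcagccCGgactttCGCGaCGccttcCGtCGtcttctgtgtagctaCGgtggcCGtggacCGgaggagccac
The second group is made of promoters of the RefSeq table with no TET2 peak, shown for contrast: *Ppargc1a* (chr5:51567727-51567975), *Dio2* (chr12:90739039-90739288) and *Ehmt1* (chr2:24919643-24919859), all on the minus strand.
Ppargc1a promoter: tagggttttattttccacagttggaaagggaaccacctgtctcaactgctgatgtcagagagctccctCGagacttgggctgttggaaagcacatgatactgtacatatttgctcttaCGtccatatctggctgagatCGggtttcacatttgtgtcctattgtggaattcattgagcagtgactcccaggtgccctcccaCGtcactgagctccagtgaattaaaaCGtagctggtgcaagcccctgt
Dio2 promoter: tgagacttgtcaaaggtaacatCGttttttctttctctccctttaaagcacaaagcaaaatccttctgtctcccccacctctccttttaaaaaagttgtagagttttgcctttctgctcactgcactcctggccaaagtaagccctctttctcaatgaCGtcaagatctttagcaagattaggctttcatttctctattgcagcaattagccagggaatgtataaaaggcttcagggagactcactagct
Ehmt1 promoter: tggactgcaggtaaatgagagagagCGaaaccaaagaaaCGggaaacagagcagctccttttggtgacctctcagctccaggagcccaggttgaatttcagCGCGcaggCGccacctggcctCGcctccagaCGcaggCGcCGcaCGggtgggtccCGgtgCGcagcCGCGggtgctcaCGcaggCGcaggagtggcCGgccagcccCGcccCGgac
The *Ucp1* stretch holds 12 CGs, the *Tfam* stretch 22 in 170 bases, the *Prdm16* intron 29 and the *Adrb3* exon 22. The *Ppargc1a* stretch has 5 and the *Dio2* stretch 2, while the *Ehmt1* stretch, also without a peak, has 19 in 217 bases.

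**Figure D1:**
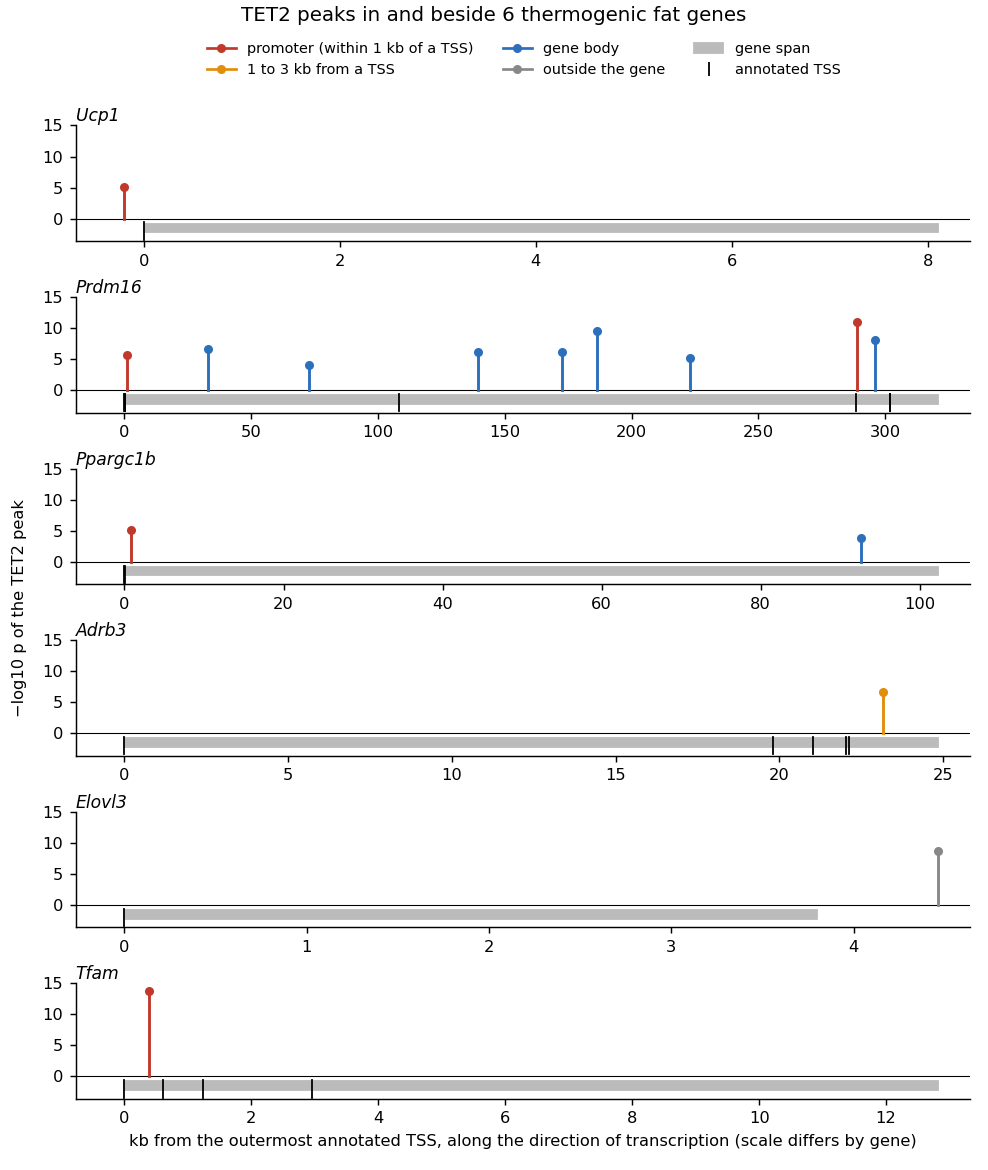
TET2 peaks along *Ucp1*, *Prdm16*, *Ppargc1b*, *Adrb3*, *Elovl3* and *Tfam*, with the distance from the outermost annotated TSS in kb on the x axis (its scale differs by gene) and the −log10 p of each peak as the height of its stem. The grey bar is the gene, black ticks are annotated TSSs, and 9 of the stems stand in *Prdm16*.

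Among the effector genes of the set (*Ucp1*, *Elovl3*, *Dio2* and *Cidea*), only *Ucp1* had a peak at its own start. *Ucp1* (ENSMUSG00000031710, chr8:83290352-83298452, plus strand) has a single annotated TSS, and its peak at chr8:83289923-83290392 reached from −429 bp to 40 bp of that TSS, with the midpoint at −195 bp. The peak was 470 bp long and its −log10 p was 5.07, which 81.8% of the deposited peaks exceeded. It was thus one of the weaker entries of the list. The peak held 21 CpGs at a CpG ratio of 0.493, where the ratio sets the CpGs found against those that the C and G content would give, and the median over all peaks was 0.512. Its sequence matched the genome at 1 place (at least 100 bp and 90% identity), and 4.47% of it was repeat. No other peak lay between it and a peak 33778 bp past the end of the gene, at the start of *Elmod2*. Only 4.52% of the 2387 coding genes of like length (80% to 125% of its own) had a gene body peak.

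*Elovl3*, *Dio2* and *Cidea* had no peak of their own. *Elovl3*, a fatty acid elongase induced by cold in brown fat, lies at chr19:46131897-46135694. The nearest peak, chr19:46136109-46136612, was centred 4463 bp from its TSS and 666 bp past its end, with a −log10 p of 8.64. That peak was 929 bp downstream of a TSS of *Pitx3*, a neighbouring transcription factor gene, and so counts as a promoter peak of *Pitx3*. *Dio2*, which encodes the deiodinase that turns thyroxine into its active form, lies at chr12:90724552-90738438. Its nearest peak was 79946 bp downstream of the TSS, at chr12:90658237-90658748. This peak had a −log10 p of 4.12, and its sequence had 19 matches in the genome, so the origin of its reads is uncertain. Without the peaks whose −log10 p is below 5, the nearest was 132686 bp away, upstream of the gene. A distance as long as the first is not unusual, as 76.4% of coding genes had a nearer peak than *Dio2*.

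*Cidea*, which encodes a protein of lipid droplets and marks brown and beige fat, had no peak. It lies at chr18:67343604-67367785 on the plus strand. The nearest peak by its TSS was 52014 bp upstream, chr18:67291357-67291824, with a −log10 p of 10.7, and was 2338 bp from a TSS of *Impa2*. The *Cidea* promoter is CpG-rich by the window used here, with a ratio of 0.65, but the ratio fell to 0.49 when 1 kb each side was counted.

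*Adrb3*, the β3-adrenergic receptor through which noradrenaline acts on adipocytes, lies at chr8:27225776-27250616 on the minus strand. Its peak at chr8:27227098-27227783 was 686 bp long with a −log10 p of 6.70, above the median of the list. The midpoint was 1054 bp downstream of the TSS of the protein-coding transcript Adrb3-202, just outside the promoter window, and inside coding exon 2 of Adrb3-201. It was 2148 bp from the TSS of Adrb3-201 and 23176 bp from the outermost TSS, which belongs to a noncoding transcript. The CpG content of this receptor gene sits in its coding sequence: the peak held 56 CpGs at a ratio of 0.794, while the ratios at the 5 annotated TSSs ran from 0.17 to 0.42. As the printed peak centre shows, 22 CGs fall within 250 bases of the exon. The peak's nearest edge was 711 bp from the Adrb3-202 TSS, so the gene would count as having a promoter peak if any base within 1 kb were enough.

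**Figure D2:**
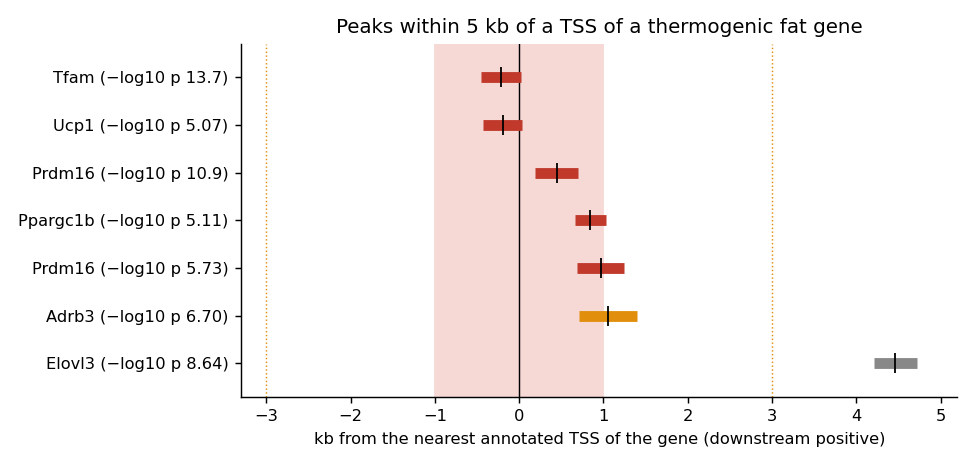
The 7 peaks within 5 kb of a TSS of the set, drawn as bars from edge to edge against the nearest TSS of that gene in kb, with a tick at the midpoint. Red bars are promoter peaks, the orange bar is the *Adrb3* peak at 1054 bp, the grey bar is the peak past *Elovl3*, the shaded band is the 1 kb window and dotted lines mark 3 kb.

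*Prdm16*, the transcription factor that drives brown fat identity, held more TET2 peaks than any other gene of the set. The gene (ENSMUSG00000039410) spans 320749 bp at chr4:154316125-154636873 on the minus strand and has 7 annotated TSSs. One promoter peak, chr4:154635551-154636108, lay in intron 1, centred 968 bp downstream of a TSS and 1044 bp downstream of the outermost one. Its −log10 p was 5.73, and it was rich in CpGs, with 64 at a ratio of 0.899. The midpoint is only just inside the 1 kb window, and the TSS it is counted from belongs to the noncoding transcript Prdm16-212. The other promoter peak was the strongest of the gene, with a −log10 p of 10.9 and rank 791 of the list. It sits 288861 bp into the gene, in coding exon 6 of Prdm16-201, and counts as a promoter peak through the TSS of the noncoding transcript Prdm16-208, 445 bp away, around which the CpG ratio was 0.36. When only the TSSs of protein-coding transcripts were used, *Prdm16* had 0 promoter peaks, 1 at 1 to 3 kb and 8 in the gene body.

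The 7 gene body peaks of *Prdm16* were spread through the gene. At chr4:154340731-154341494, in coding exon 9, the −log10 p was 8.09. The other 6 were intronic, in introns 1, 2 and 3, with a −log10 p between 4.12 and 9.59. Their CpG ratios lay between 0.181 and 0.479, all below that of the median peak, whereas the ratio of the exon 9 peak was 0.533. Each of the 9 peaks matched the genome at 1 place, and repeats made up at most 8.90% of any of them. Antisense genes also start inside *Prdm16*, and the body peak at chr4:154603777-154604168 was 2657 bp from the TSS of one of them, Gm13134.

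A long gene offers more room for peaks, so *Prdm16* was set beside the 365 coding genes of like length, by the same limits. Of these, 57.8% had a gene body peak, with a median of 1 and a maximum of 8. There were 2 genes, or 0.548%, with at least 7: *Pcdha1* with 8 and *Gse1* with 7. Only distance from a gene's own TSSs was required, so a body peak of any of these genes may lie at a TSS of another gene. *Prdm16* is also unusual in its base composition among them. Its GC content was 51.5%, against a median of 41.6%, and only 1 of the 365 had a higher one. It held 15.6 CpGs per kb against a median of 8.10. In the 12 genes of like length within 3 percentage points of its GC content, the median was 1.5 body peaks and the maximum 4. That maximum depends on the width of the band, since *Gse1*, with 7 body peaks and a GC content of 54.5%, and *Col23a1*, with 5 and 48.1%, lay just outside it. The part of GC content in the number of peaks was not tested.

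*Ehmt1* encodes a histone methyltransferase that works with PRDM16 in brown fat, and its locus looked unlike that of its partner. The gene (chr2:24789928-24919614, minus strand) has 17 annotated TSSs and had no peak at any of them or in its body. Among coding genes with 10 or more TSSs, 39.1% had a promoter peak. The main cluster of *Ehmt1* TSSs is CpG-rich, with a ratio of 0.94 at the outermost, and 94.9% of coding promoters had a lower one. The nearest peak to any of the TSSs, chr2:24762385-24762824, had a −log10 p of 5.21. It was 27324 bp past the gene end, at the start of *Cacna1b*, a calcium channel gene. It was 43751 bp from the TSS of Ehmt1-206, which lies outside the main cluster. For the main cluster the nearest peak was another one, 55498 bp upstream of the outermost TSS, at the start of *Mrpl41*, with a −log10 p of 4.12. Of genes of like length to *Ehmt1*, 32.5% had a gene body peak, so the lack of one is the usual case.

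The genes of the coactivators PGC-1α and PGC-1β differed in the deposited list. *Ppargc1b* lies at chr18:61298136-61400431 on the minus strand, and its promoter peak, chr18:61399368-61399742, was centred in intron 1, 845 bp downstream of a TSS. The −log10 p was 5.11, and 81.7% of peaks had a larger one. The peak held 28 CpGs at a ratio of 0.741, close to the 0.72 of the promoter. A second peak at chr18:61307606-61308064, in coding exon 8, had a −log10 p of 3.86 and rank 13882, near the bottom of the list. Of the 1281 genes of like length, 28.3% had a gene body peak.

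*Ppargc1a*, by the GENCODE annotation, had no peak in or near it. It runs over chr5:51454250-51567726 on the minus strand, its 5 TSSs have CpG ratios of 0.17 to 0.23, and the nearest peak was 391587 bp upstream. It is 1 of 3 genes in the set with a CpG-poor promoter at the outermost TSS, beside *Dio2* and *Adrb3*. The upstream peak, chr5:51959084-51959542, held 0 CpGs, was 75.4% repeat and had 16471 matches in the genome, so its place there is uncertain. The RefSeq annotation extends *Ppargc1a* much farther, to position 52115853, through predicted transcripts.

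Around that far RefSeq start the list did hold a peak. At chr5:52114703-52115268 a 566 bp peak with a −log10 p of 9.52 (rank 1589) was centred 471 bp downstream of a RefSeq TSS of *Ppargc1a* that lies 547730 bp upstream of the GENCODE start. It held 42 CpGs at a ratio of 0.743, matched the genome at 1 place and was 8.13% repeat. The RefSeq TSSs there have CpG ratios of 0.88 and 0.90, against 0.18 to 0.56 at the other 8. The centre of this peak, chr5:52114860-52115109 on the minus strand, is shown to set it against the CpG-poor promoter above.
Ppargc1a far upstream peak: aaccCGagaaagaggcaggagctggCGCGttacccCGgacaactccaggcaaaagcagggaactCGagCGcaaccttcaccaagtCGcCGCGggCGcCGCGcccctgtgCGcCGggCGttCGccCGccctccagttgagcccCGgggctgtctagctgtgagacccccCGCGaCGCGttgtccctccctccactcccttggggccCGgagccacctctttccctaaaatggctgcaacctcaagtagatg
It has 23 CGs in 250 bases, where the proximal promoter has 5. Whether these predicted transcripts are made in adipocytes was not measured. With RefSeq in place of GENCODE the number of genes with a promoter peak stayed at 4, but the genes changed, since *Ppargc1a* gained its peak and *Prdm16* lost both.

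*Tfam*, which encodes the factor that packs and transcribes mitochondrial DNA, had the strongest peak of the set. The gene lies at chr10:71225464-71238280 on the minus strand, and the peak at chr10:71237658-71238134 had a −log10 p of 13.7 and rank 181, so that only 1.28% of the deposited peaks were larger. Its midpoint was in coding exon 1 of Tfam-201, 384 bp downstream of the outermost TSS and 218 bp upstream of the TSS of Tfam-203. The peak held 54 CpGs at a ratio of 0.970 and no repeat. The printed stretch of it opens with the start codon and carries 22 CGs. The promoter ratio depended on where it was measured, being 0.68 within 500 bp of the outermost TSS, 0.32 from 250 bp before to 50 bp after it, and 0.81 around the TSS of Tfam-203. At the TSSs farther in, those of Tfam-205 and Tfam-204, the ratio was 0.20 and 0.27.

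**Figure D3:**
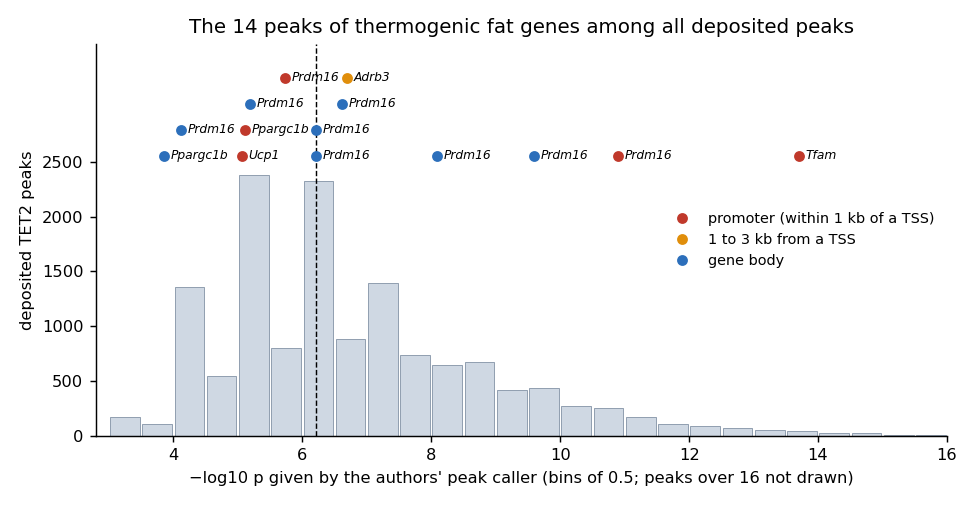
Histogram of the −log10 p of the deposited peaks in bins of 0.5, with the 14 peaks of the set as dots above it, coloured by place. The dashed line is the median of 6.21, 6 of the 14 dots lie above it and 2 on it, and the *Tfam* peak at 13.7 lies farthest to the right.

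The peaks of the set covered much of the range of the list. Of the 14, 6 had a −log10 p above the median of all peaks and 2 had that very value, which 1215 peaks of the list share. The 5 promoter peaks of the set were at 5.07, 5.11, 5.73, 10.9 and 13.7, around the median of 6.83 for the 5165 peaks at coding promoters. Of these, 3 are weaker than the typical promoter peak.

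Across all coding genes, those with more CpGs around the outermost TSS had promoter peaks more often. The CpG class is that of the outermost TSS, while a peak at any TSS of the gene counted. A promoter peak was found for 7.62% of genes with a CpG-poor promoter (ratio below 0.4). It was 26.3% for intermediate promoters and 38.7% for CpG-rich ones (ratio above 0.6). With only the outermost TSS counted, the share over all coding genes was 20.1% in place of 24.5%. The shares by class were not recounted in that way. The set held 3 CpG-poor promoters (*Ppargc1a*, *Dio2* and *Adrb3*) with 0 promoter peaks. The class of *Adrb3* comes from the TSS of a noncoding transcript. At the TSS of the protein-coding Adrb3-202, 1054 bp from its peak, the ratio was 0.42, which is intermediate. Of its 2 intermediate promoters *Ucp1* had a peak and *Elovl3* did not. With 1 kb counted each side, the *Ucp1* ratio was 0.36, which would make it a CpG-poor promoter with a peak. Of its 5 genes with CpG-rich promoters 3 had a promoter peak, *Prdm16*, *Ppargc1b* and *Tfam*, and *Cidea* and *Ehmt1* had none. With only the outermost TSS counted, *Prdm16* had 0. Its intron 1 peak lay 1044 bp from that TSS, and its other promoter peak was at a TSS with a ratio of 0.36. *Ucp1* is in the 0.4 to 0.5 bin, where 23.1% of genes had a promoter peak. *Ehmt1* and *Prdm16* are in the bin from 0.9, where 44.6% did. The median ratio of the set was 0.59, and that of all coding genes 0.55.

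**Figure D4:**
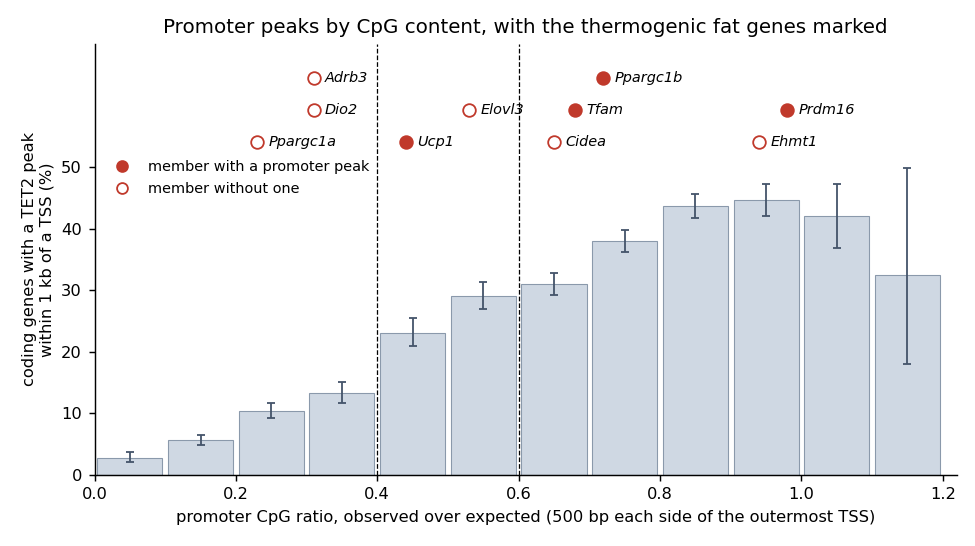
Share of coding genes with a TET2 promoter peak, in percent, by the CpG ratio around the outermost TSS in bins of 0.1. Error bars are exact binomial 95% intervals. The share rose from 2.76% in the lowest bin to 44.6% in the bin from 0.9. It was 42.0% in the bin from 1.0 (367 genes) and 32.4% in the bin from 1.1 (37 genes). Circles above give the ratio of each gene of the set (filled where it had a promoter peak), and dashed lines mark 0.4 and 0.6.

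A gene with more TSSs has more places where a peak may count. The share of coding genes with a promoter peak was 14.4% with 1 TSS, 20.9% with 2 to 4, 33.9% with 5 to 9 and 39.1% with 10 or more. *Ucp1*, *Cidea*, *Dio2* and *Elovl3* have 1 TSS each, *Ppargc1b* has 2 and *Tfam* has 4. *Ppargc1a* and *Adrb3* have 5 each, *Prdm16* has 7 and *Ehmt1* has 17. *Ucp1* was thus the only gene of the 4 with a single TSS that had a promoter peak.

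The distance to the nearest peak varied widely within the set. It was 195 bp for *Ucp1*, 218 bp for *Tfam*, 445 bp for *Prdm16*, 845 bp for *Ppargc1b*, 1054 bp for *Adrb3* and 4463 bp for *Elovl3*. The other 4 were farther, with 43751 bp for *Ehmt1*, 52014 bp for *Cidea*, 79946 bp for *Dio2* and 391587 bp for *Ppargc1a*. The median of the set was 2758 bp and that of all coding genes 22942 bp, which with so few genes is not read here as a difference. The distances also depend on the TSSs used. For *Prdm16* the 445 bp is to the TSS of a noncoding transcript, and 1037 bp was the shortest for a protein-coding one. For *Ppargc1a* the distance is to the peak with 16471 matches in the genome, and by RefSeq a TSS lay 471 bp from a peak. For *Ucp1*, 13.9% of coding genes had a nearer peak, and for *Ppargc1a* 96.6% did.

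**Figure D5:**
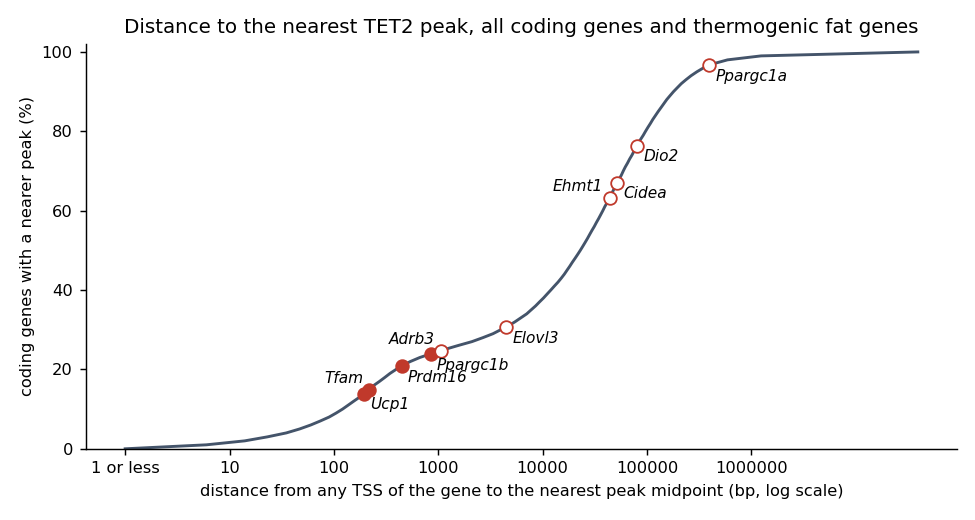
Percent of coding genes with a nearer TET2 peak (y axis) against the distance from any TSS of a gene to the nearest peak midpoint in bp on a log scale (x axis). The line is all coding genes and the circles are the genes of the set, filled for those with a promoter peak, from *Ucp1* at 195 bp to *Ppargc1a* at 391587 bp.

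Short motifs were looked for on both strands in the central 300 bases of the promoter peaks and in the 6 promoters of the set that the RefSeq table holds. The cAMP response element TGACGTCA, bound by CREB at the end of the adrenergic cascade, was found in the *Dio2* promoter, where it can be read above as tgaCGtca, and in 0 of the 5 promoter peaks of the set. It was in 0.546% of all peaks and 1.79% of all promoters. Its half-site TGACG, which every full element contains, was in the *Ucp1* peak and in the promoters of *Ucp1*, *Ppargc1a* and *Dio2*, against 16.7% of peaks and 20.8% of promoters. The GC box GGGCGG of the SP family was in both *Prdm16* promoter peaks and in that of *Ppargc1b*, against 33.7% of all peaks, and in the promoters of *Prdm16*, *Tfam* and *Ehmt1*, against 35.7% of promoters. The AP-2 motif GCCNNNGGC occurred 3 times in the *Prdm16* intron 1 peak and 1 time in the *Tfam* peak, against 25.6% of all peaks with at least 1, and was in the promoters of *Prdm16* and *Tfam*, against 16.6% of promoters. The NRF1 motif GCGCNTGCG was in the *Ehmt1* promoter (6.31% of all promoters), the C/EBP motif TTGCNNAA in the *Dio2* promoter (10.8%), and the ERR motif CAAGGTCA in none of these windows (1.16% of all peaks). Such matches describe the letters of the sequence and show no binding.

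Other genes of thermogenesis, 49 in 6 lists by role, had a promoter peak in 20 cases, or 40.8%, beside 24.5% of all coding genes. All 20 were among the 37 genes whose outermost TSS is CpG-rich, and the 7 CpG-poor and 5 intermediate ones had 0. A peak at any TSS counted, and with only the outermost TSS 13 of the 49 had one. With any TSS counted, 6 of 8 genes of adrenergic signalling had a promoter peak. Among them were *Adrb1*, a β-adrenergic receptor gene, and *Gnas*, which encodes the stimulatory G protein subunit. *Gnas* had 3 promoter peaks over all its annotated TSSs, and the transcripts they belong to were not told apart. Also among them were *Adcy3*, an adenylyl cyclase, *Prkar2b*, a regulatory subunit of protein kinase A, and *Pde3b*, which breaks down cyclic AMP. The largest −log10 p values of these 5 were 9.51, 7.74, 4.12, 5.45 and 7.40. *Prkaca* and *Creb1* had none. The *Adrb1* peak was centred at −553 bp of its nearest annotated TSS. The CpG ratio of 0.84 for *Adrb1* was taken at its outermost TSS, which is a different one.

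The other lists are read against the same 24.5% of all coding genes and 38.7% of genes with CpG-rich promoters. The shares of 33.3% for the regulators and 21.4% for the effectors were near the first of these, and with so few genes none of the lists is read here as a difference. Among transcriptional regulators it was 4 of 12, with *Ehmt2*, the close relative of *Ehmt1*, at 6.24 and the nuclear receptor *Esrrg* at 5.59. The adipocyte regulators *Pparg*, *Ppara* and *Irf4* had none. For the factors that copy and transcribe mitochondrial DNA alongside TFAM it was 3 of 5, with *Tfb1m* at 7.05 and the helicase gene *Twnk* at 5.54. Of the effectors 3 of 14 had one: the potassium channel *Kcnk3* at 10.5, the alkaline phosphatase *Alpl* at 9.06 and the creatine kinase *Ckb* at 7.74. The list also holds the brown fat cytochrome oxidase subunits *Cox7a1* and *Cox8b*, which had none. Of the beige markers 1 of 5 had a promoter peak, *Tbx1* at 5.81, and of the secreted factors 3 of 5, among them *Bmp7* at 10.3 and *Bmp8b* at 7.05, both signals that promote thermogenic fat. None of these values reached the 13.7 of the *Tfam* peak.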

How the data were processed

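The authors removed adapters and poor reads with NGS QC Toolkit, aligned reads with bowtie1, and called peaks with MACS2 (version 2.1.0 per the labels) against the input. The deposited list gives start, end and −log10 p of each peak for the single TET2 library, with no read counts, and the input was not analysed here on its own. Positions count from 1. The labels name mm10 (GRCm38) and the methods GRCm39. GRCm38 was used, and nothing was converted. No peak runs past the end of a chromosome of that build, which does not by itself settle the build.

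Peaks were placed by midpoint against every TSS of GENCODE M21, and with RefSeq as an alternative. The CpG ratio was taken 500 bp each side of the outermost TSS. Other alternatives were −log10 p limits, windows of 500 bp and 2 kb, edges in place of midpoints and other TSS sets. Copies were counted with blastn 2.17.0 (at least 100 bp, 90% identity). The work used pandas 2.3.3 in Python 3.11.15, with scipy 1.17.1 for intervals and matplotlib 3.10.9 for plots. Placement was tested on simulated peaks upstream of the outer end of genes, and not on peaks inside a gene. The 10 genes and the lists were chosen with earlier results of these data known. The genes named are all 10, up to 15 of the other thermogenesis genes with a promoter peak by −log10 p, and genes whose TSS lies nearest to a peak of the set; *Adcy3*, the list genes without a peak and 3 genes of like length to *Prdm16* were named after their values were seen. A gene of the lists and a sequence are not reported here.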

Additional observations from a re-analysis of the deposited data

How the results depend on the processing

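Of 96 alternative values 76 were classed as the same and 20 as moved, by rules that differ with the kind of value. Counts were the same when within 1.5 times. The CpG ratios classed as the same kept their CpG class but not always their value, as that of *Adrb3* went from 0.31 to 0.16. Shares by CpG class could count as moved on a smaller change. When peaks at or below the median −log10 p were left out, promoter peaks remained at 2 genes (*Prdm16* and *Tfam*), at 15.3% of all coding genes and at 10 of the 49 other thermogenesis genes, and gene body peaks at 1 gene. A −log10 p of at least 5 also left 1 gene with a gene body peak, *Prdm16*. The count at 1 to 3 kb became 0 when any base of a peak counted, since *Adrb3* moved to the promoter class, and 2 with protein-coding TSSs only or with RefSeq. With only the outer TSS, 13 of the 49 other genes had a promoter peak. Counting the whole gene span put body peaks in 4 genes. A CpG window of 1 kb each side gave 29.0% for intermediate and 42.7% for CpG-rich promoters. These changes follow from which peaks and TSSs each setting admits, or, for the CpG window, from how it classes promoters. No paired analysis was possible because TET2 was mapped in 1 library. The list holds no read totals, so absence of a peak cannot be told from weak binding.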
